A study of Homo sapiens with 15 samples.

Results

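The genes described here are 33 targets and regulators of the transcription factor p53, read in HEK293T, a human embryonic kidney cell line that carries the SV40 large T antigen. The list was given by gene symbol, and 32 symbols matched the GENCODE gene names while TNFRSF10B-AS1 was matched by its coordinates. Of the 33, 31 reached the level set for testing, which was at least 0.5 FPKM (fragments per kilobase of exon, scaled to library size) in at least 3 libraries, out of 16175 such genes among the 58735 in the tables. RNA-seq was made from 15 libraries in 5 groups of 3 wells. The Non-target group carried lentiCRISPRv2, a lentivirus for Cas9 and a guide, with a guide not aimed at a human gene, and its genotype is labelled WT. The other 4 groups carried the same vector with a guide against C9orf89 (now CARD19; C9orf89-CKO), against MAGI2 (MAGI2-CKO), against MLPH (MLPH-CKO) or against RHBDD2 (RHBDD2-CKO). All 5 groups thus shared the T antigen of the line, Cas9, the puromycin selection and growth in DMEM. Each group was 1 clone grown out by limiting dilution after a 2-week puromycin selection, so the loss of a gene and the history of a clone cannot be told apart, and p-values measure only the spread between 3 wells of a clone. All 4 comparisons with Non-target shared the same 3 control wells. Libraries held 15517856 to 19489918 fragments in genes.

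p53 is a DNA-binding protein that is kept scarce by the ubiquitin ligase MDM2 and is stabilised after DNA damage, when it raises genes for cell cycle arrest, apoptosis, DNA repair and its own breakdown. It binds a pair of decamers, each made of purines, a core that opens with C and ends with G, and pyrimidines. Large T antigen binds p53 and the RB proteins, and in T-antigen cells p53 protein is abundant while its activation of targets is blunted. T antigen itself was not analysed here, since the tables list human genes. In bulk RNA, fewer cells with a transcript and less of it per cell cannot be told apart.

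Promoter windows from RefSeq (GRCh38.p14, 250 bases before to 50 bases after an annotated start) were available for 28 of the 33 genes. A single p53 consensus decamer, searched on both strands without mismatch, lay in a window of 7 of these 28 genes, against 8.06% of 27305 genes with windows. A pair of decamers at most 1 base apart, with at most 2 mismatches, lay in a window of 4 genes, against 0.674% of all genes. The sequences of those 4 follow with that of SESN1, a single-decamer gene that was lower in every clone, as examples of the element that p53 binds. Capitals mark the match, and lower case up to 30 bases on either side within the window. The lower-case base inside the DDB2 match is a spacer between decamers.

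MDM2 (chr12:68808893-68808972, plus strand, 2 mismatches, intron of MDM2): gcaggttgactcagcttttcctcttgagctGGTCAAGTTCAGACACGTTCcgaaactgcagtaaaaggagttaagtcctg
FAS (chr10:88991279-88991358, plus strand, 2 mismatches, exon of at least 1 FAS transcript): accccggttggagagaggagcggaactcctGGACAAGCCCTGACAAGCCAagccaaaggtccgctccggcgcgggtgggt
DDB2 (chr11:47214939-47215023, plus strand, 0 mismatches in the best pair, exon of at least 1 DDB2 transcript): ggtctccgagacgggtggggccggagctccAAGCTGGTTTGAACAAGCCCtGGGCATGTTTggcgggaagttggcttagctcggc
AEN (chr15:88621276-88621355, plus strand, 2 mismatches, exon of at least 1 AEN transcript): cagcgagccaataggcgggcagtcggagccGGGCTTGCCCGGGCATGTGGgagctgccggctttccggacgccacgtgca
SESN1 (chr6:109008998-109009067, minus strand, single decamer, intron of SESN1): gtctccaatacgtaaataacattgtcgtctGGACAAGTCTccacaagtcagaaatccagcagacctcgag

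The other genes with a single decamer were FDXR, RPS27L and RB1. Counted by window, 7 of the 44 windows of these genes held a single decamer, against 6.63% of 35116 windows. A pair lay in 5 of the 44, against 0.533%. The genes were listed as targets and regulators of p53, so these shares describe the list and do not test it. A match is a description of the sequence and was not measured as binding.

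The labels were checked first. CARD19 was 6.56 ± 1.04 FPKM (SD, n = 3) in Non-target and 4.32 ± 0.0421 in C9orf89-CKO, and was also lower in RHBDD2-CKO at 4.79 ± 0.339. RHBDD2 was 33.5 ± 5.50 FPKM in Non-target, 12.4 ± 1.18 in RHBDD2-CKO and 13.8 ± 2.15 in MAGI2-CKO, where the 100 nearest genes tested had a median log2 fold change of -0.51. MAGI2 lay between 0.0523 and 0.123 FPKM in all 15 libraries and MLPH was listed at 0 in all 15, so neither could check its label. Of 9 HEK293T markers, 7 reached 0.5 FPKM in all 15 libraries. The exceptions were NEFM, at a mean of 0.0274 FPKM in MAGI2-CKO against 27.2 in Non-target, and LHX1, at 0.452 in RHBDD2-CKO. In RHBDD2-CKO the neuronal intermediate filament genes NEFL, NEFM and INA were also low, at 0.984, 1.34 and 4.53 FPKM against 18.8, 27.2 and 14.6 in Non-target. The summed level of the 9 markers averaged 140.2 FPKM in Non-target, 152.6 with C9orf89-CKO, 139.4 with MAGI2-CKO, 204.6 with MLPH-CKO and 83.5 with RHBDD2-CKO, with vimentin (VIM) the most abundant, and the part of this spread in the p53 results was not tested. All 8 myeloid markers stayed under 0.5 FPKM in all 15 libraries and MPO was listed at 0. The lists for lymphoid, pancreatic and fibroblast cells summed to at most 1.997, 2.98 and 5.998 FPKM in any library, and EPCAM and COL1A1 led the last 2 lists. In every group the first well stood apart from the others: chi-square per gene between its counts and those of a sister well was 14.6 to 24.8, against 2.4 to 6.54 between the second and the third wells. The counts of p53 genes called were therefore also taken without the 5 first wells, and the share of all genes tested that passed was higher then.

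More of the p53 genes were lower than higher in each clone. In C9orf89-CKO, 19 of the 31 genes were lower and 2 were higher, where 13.1% of all genes tested were lower and 12.9% higher (26% in either direction). In MAGI2-CKO, 14 were lower and 1 was higher, against 19.1% and 17% of all genes (36.1% together). In MLPH-CKO, 12 were lower and 3 were higher, against 15.5% and 14.5% (30.1%). In RHBDD2-CKO, 16 were lower and 4 were higher, against 16.7% and 17.4% (34.1%). These are calls of limma at a Benjamini-Hochberg adjusted p under 0.05 over all 16175 genes, in 1 fit of all 15 libraries on log2(FPKM + 0.1), a scale on which the fold change of low genes is understated. In the same clone order, the genes lower without the 5 first wells numbered 18, 11, 11 and 16, against 17.2%, 21.7%, 20.3% and 22.2% of all genes, and the genes higher 2, 1, 3 and 3, against 15.2%, 18.7%, 16.6% and 19.8%. The median log2 fold change of the 31 genes was -0.61 for C9orf89-CKO, -0.10 for MAGI2-CKO, -0.18 for MLPH-CKO and -0.44 for RHBDD2-CKO, while the median of all genes tested lay within 0.01 of 0 in each.

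**Figure D1:**
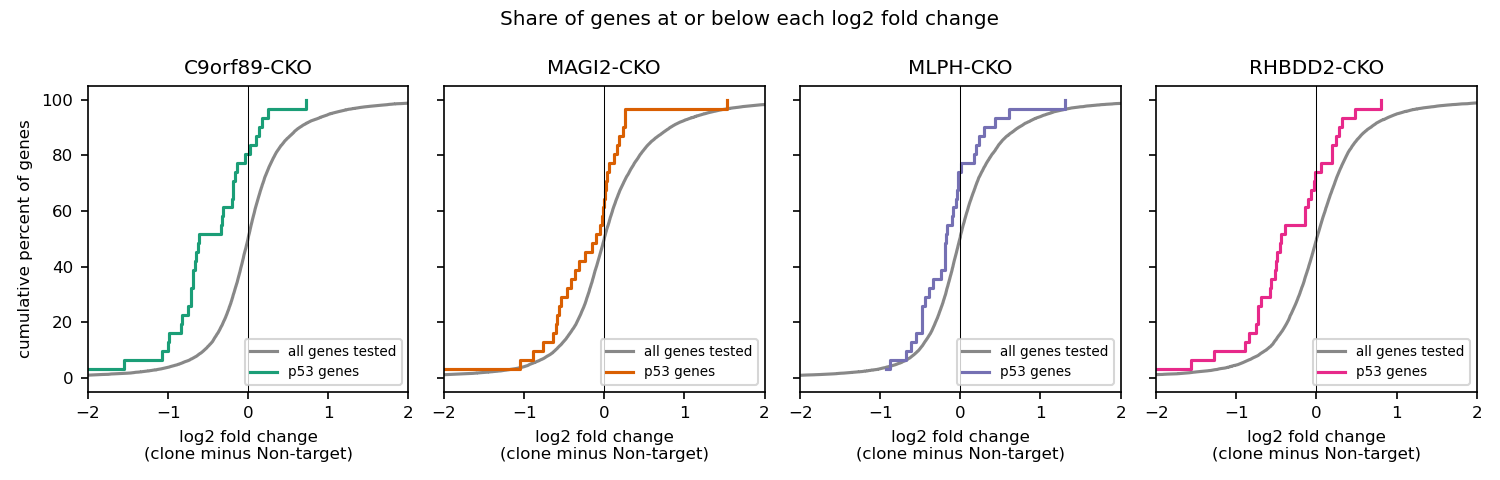
Cumulative percent of genes (vertical axis) at or below each log2 fold change of a clone against Non-target (horizontal axis, drawn from -2 to 2), for all 16175 genes tested (grey) and the 31 p53 genes (coloured steps). The coloured steps lie left of the grey line over most of the range, with medians of -0.61, -0.10, -0.18 and -0.44 from left to right, and EDA2R lies beyond the left edge in 3 of the 4 clones.

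EDA2R, PHLDA3, CDKN1A, BBC3, BTG2, TRIAP1 and SESN1, 7 genes of the 31, were lower in all 4 clones, a pattern found in 3.26% of all genes tested. Without the 5 first wells 7 genes had it, with GADD45A and CCNG1 in place of EDA2R and BBC3, against 5.02% of all genes. TP53I3 was the 1 gene higher in all 4, against 3.39% of all genes. Another 5 (FAS, GADD45A, BAX, CCNG1 and ZMAT3) were lower in 3 clones, which makes 12 genes in at least 3 clones, against 8.79% of all genes. POLH, XPC, PPM1D, MDM4 and TIGAR passed the threshold in no clone, against 38.5% of all genes. Of these, PPM1D passed in C9orf89-CKO with a replicate block. MDM2 and TP53INP1 were lower in some clones and higher in another, a share of 6.45% that lies near the 7.28% of all genes. With a replicate block 6 genes had calls in both directions (DDB2, FBXO22, FDXR, MDM2, RPS27L and ZMAT3). The 7.28% is from the fit without the block. No share of all genes with the block is given here, so the 6 were not set beside all genes. A moderated F test over the 5 groups called 26 of the 31 genes, against 61% of all genes tested. By raw values, 9 genes had all 3 wells of every clone below all 3 Non-target wells, against 5.26% of all genes. These were the genes lower in all 4 clones together with GADD45A and CCNG1. Without the 5 first wells, 11 genes were lower in at least 3 clones (12.4% of all genes), 0 were higher in all 4 (4.09%), 6 passed in no clone (30.5%), MDM2 and TP53INP1 passed in both directions (8.88%), and the F test called 26 (67.8%).

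**Figure D2:**
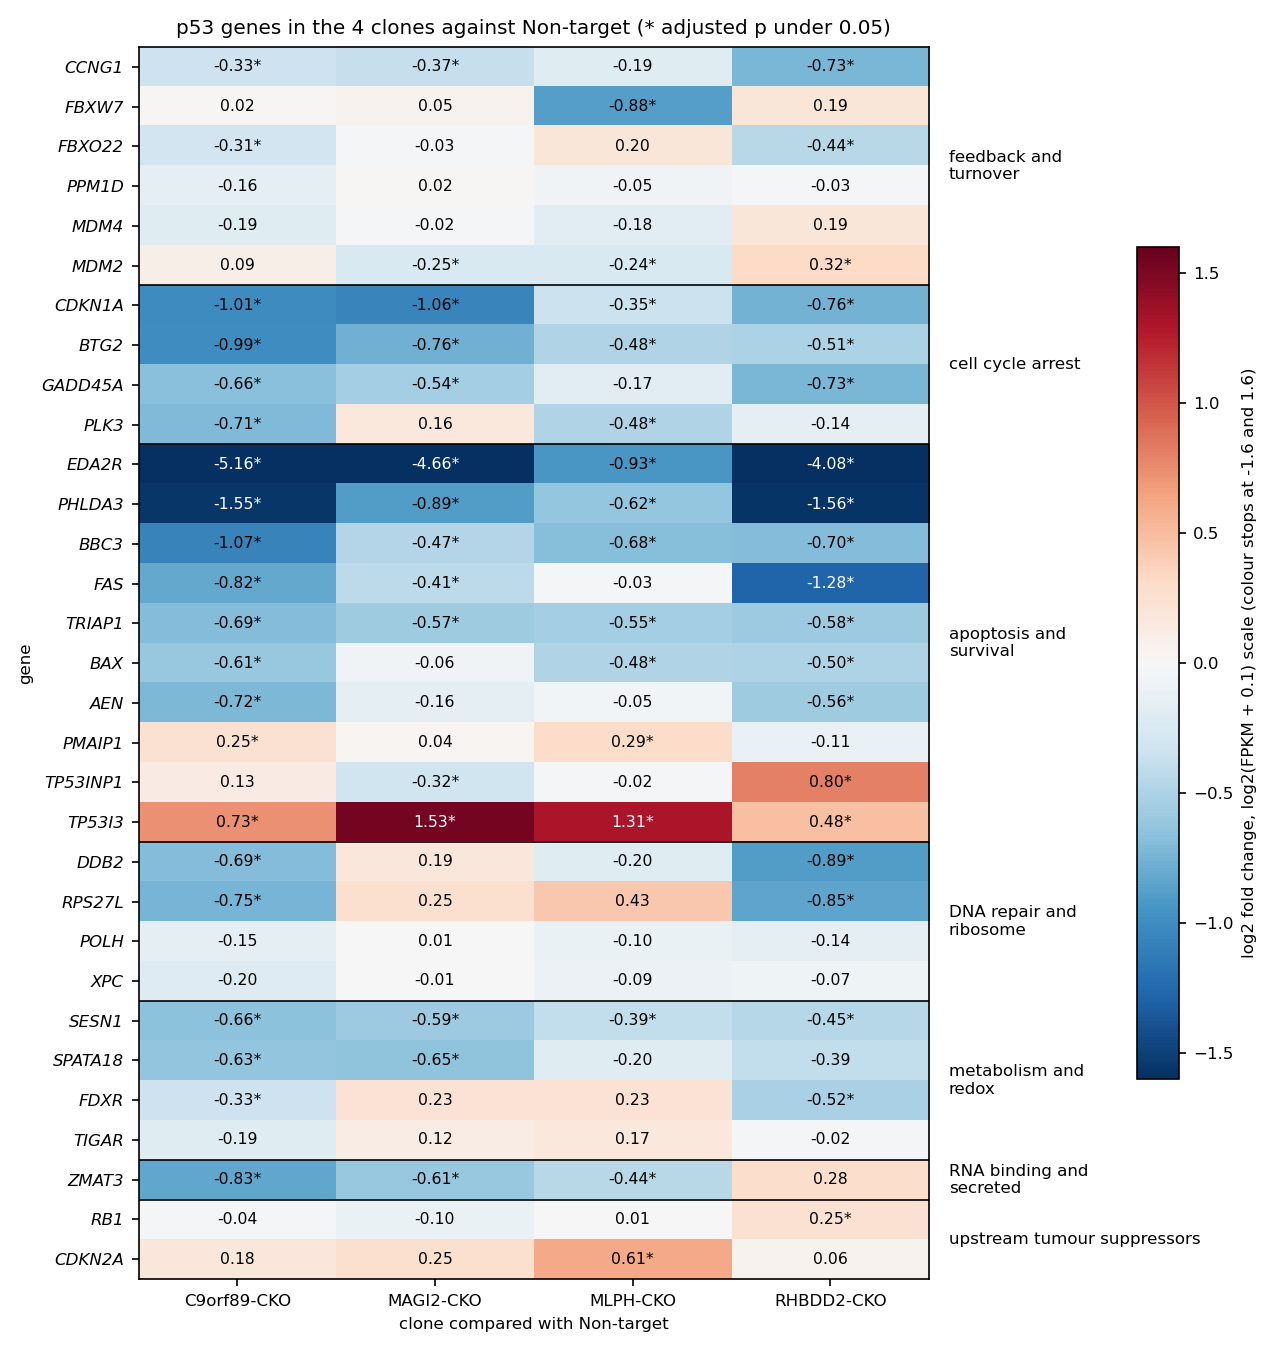
Log2 fold change on the log2(FPKM + 0.1) scale of the 31 p53 genes tested (rows, grouped by role) in each of the 4 clones against Non-target (columns). Blue is lower, red is higher, colour stops at -1.6 and 1.6, each cell prints its value, and a star marks an adjusted p under 0.05. The cell cycle arrest rows are blue nearly throughout, TP53I3 is red in all 4 columns, and the DNA repair rows DDB2 and RPS27L carry stars in C9orf89-CKO and RHBDD2-CKO only.

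Of 4 genes for cell cycle arrest, all 4 were lower in C9orf89-CKO and 3 in each of the other clones, and none was higher, with the same counts without the 5 first wells. Counts by role stand beside 13.1%, 19.1%, 15.5% and 16.7% of all genes tested lower and 12.9%, 17%, 14.5% and 17.4% higher, and cover 4 to 10 genes each. Their median log2 fold changes were -0.85, -0.65, -0.41 and -0.62, in the order C9orf89-CKO, MAGI2-CKO, MLPH-CKO, then RHBDD2-CKO, which is kept for every run of 4 values here. CDKN1A (chr6:36676460-36687339) encodes p21, the inhibitor of cyclin-dependent kinases through which p53 halts the cell cycle. Its FPKM was 16.7, 18.6 and 17.0 in the Non-target wells and 8.003, 8.76 and 9.17 in C9orf89-CKO. It was 7.52, 8.504 and 9.04 in MAGI2-CKO, 12.7, 14.3 and 14.1 in MLPH-CKO, and 9.57, 11.1 and 10.2 in RHBDD2-CKO. No clone well overlapped the Non-target wells, and MLPH-CKO lay between Non-target and the other three clones. The log2 fold change of CDKN1A was -1.01 ± 0.09 (SE), -1.06, -0.35 and -0.76 over the 4 clones, with limma adjusted p of 3.41e-06, 1.35e-06, 0.00816 and 2.77e-05. Between clones, CDKN1A was lower in C9orf89-CKO and MAGI2-CKO than in MLPH-CKO (-0.66 and -0.71, adjusted p = 0.000268 and 7.66e-05), and did not differ detectably between C9orf89-CKO and MAGI2-CKO (0.05 ± 0.09, adjusted p = 0.731).

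BTG2 (chr1:203305491-203309602) is an antiproliferative cofactor of mRNA deadenylation. Its FPKM was 14.96, 14.1 and 12.7 in Non-target. It was 7.43, 7.23 and 6.20 in C9orf89-CKO and 8.43, 8.005 and 7.94 in MAGI2-CKO. MLPH-CKO wells held 10.5, 9.95 and 9.44, and RHBDD2-CKO wells 10.1, 9.57 and 9.45. No clone well overlapped Non-target, and the log2 fold changes were -0.99, -0.76, -0.48 and -0.51 (SE 0.08). GADD45A, a stress protein that binds PCNA and p21, was 17.7 ± 0.847 FPKM in Non-target, and was lower in C9orf89-CKO (11.2 ± 1.76), MAGI2-CKO (12.1 ± 0.328) and RHBDD2-CKO (10.6 ± 1.43). In MLPH-CKO it was 15.7 ± 1.33, with an adjusted p of 0.286. PLK3, a stress-responsive polo-like kinase, was a low gene at 1.35 ± 0.151 FPKM in Non-target and was lower in C9orf89-CKO (0.786 ± 0.0129) and MLPH-CKO (0.939 ± 0.0918). The PLK3 call in MLPH-CKO was lost without the third Non-target well, without the second MLPH-CKO well and without the 5 first wells (adjusted p of 0.0807, 0.0755 and 0.057), and in a fit of the 6 libraries alone (0.0564).

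Of 10 tested genes for apoptosis and survival, 7, 6, 5 and 7 were lower and 2, 1, 2 and 2 higher over the 4 clones, with medians of -0.70, -0.37, -0.26 and -0.57. The counts were 7, 4, 4 and 7 lower and 2, 1, 2 and 1 higher without the 5 first wells. EDA2R (chrX:66595637-66639298) encodes a receptor of the tumour necrosis factor family for the ligand ectodysplasin A2. Its FPKM was 4.53, 3.93 and 4.17 in Non-target, from 260, 218 and 262 fragments. It was 0.0508, 0 and 0.0168 in C9orf89-CKO (3, 0 and 1 fragments), 0.101, 0.0576 and 0.0573 in MAGI2-CKO (7, 4 and 4), and 0.138, 0.0825 and 0.275 in RHBDD2-CKO (9, 5 and 16). In MLPH-CKO it was 2.20, 2.36 and 1.94 FPKM (144, 159 and 127 fragments). EDA2R was thus near the detection limit in 3 clones and intermediate in MLPH-CKO. Summed over wells and set to library size, EDA2R was 193-fold lower in C9orf89-CKO (exact Clopper-Pearson 95% interval 75.03 to 709.95), 58.6-fold for MAGI2-CKO (35.3 to 105.3), 25.8-fold for RHBDD2-CKO (17.9 to 38.5) and 1.94-fold for MLPH-CKO (1.72 to 2.19), where the intervals cover counting error only. The limma log2 fold changes were -5.16, -4.66, -0.93 and -4.08 (SE 0.26), and all but that of MLPH-CKO depend on the pseudocount. The call in MLPH-CKO (adjusted p = 0.0163) was lost without the first Non-target well (0.0566), without the third MLPH-CKO well (0.0638), without the 5 first wells (0.0852) and with a pseudocount of 0.01 (0.234). The 100 genes nearest to EDA2R had median log2 fold changes between -0.03 and 0.05 in the 4 clones.

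PHLDA3 (chr1:201464383-201469237), a repressor of the kinase AKT, was 13.1, 15.3 and 14.2 FPKM in Non-target. C9orf89-CKO wells held 4.77, 3.98 and 5.72, and MAGI2-CKO wells 7.37, 7.16 and 8.26. It was 10.001, 8.22 and 9.49 in MLPH-CKO and 5.19, 4.12 and 4.94 in RHBDD2-CKO. The groups did not overlap with Non-target, and the log2 fold changes were -1.55, -0.89, -0.62 and -1.56 (SE 0.13, adjusted p from 2.03e-06 to 0.00291). Another gene on the same strand (AC096677.2) shares 19.1% of its exon bases, so the origin of reads there is uncertain.

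BBC3 (chr19:47220822-47232766) encodes PUMA, a BH3-only activator of apoptosis. Its FPKM was 7.80, 9.83 and 8.26 in Non-target and 4.04, 3.58 and 4.51 in C9orf89-CKO. MAGI2-CKO wells held 5.15, 6.31 and 7.27, MLPH-CKO wells 6.11, 5.19 and 4.77, and RHBDD2-CKO wells 4.95, 5.94 and 4.95. All clone wells lay below all Non-target wells, with log2 fold changes of -1.07, -0.47, -0.68 and -0.70 (SE 0.14). The call in MAGI2-CKO (adjusted p = 0.0202) was lost without the second Non-target well (0.0866), without the first MAGI2-CKO well (0.0879), without the 5 first wells (0.0586) and in a fit of the 6 libraries alone (0.0579).

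TRIAP1 (chr12:120443961-120446412), a small mitochondrial protein that opposes apoptosis, was 54.5, 57.5 and 49.99 FPKM in Non-target. C9orf89-CKO wells held 32.3, 32.3 and 35.3, and MAGI2-CKO wells 39.7, 35.2 and 34.4. It was 40.9, 35.1 and 34.8 in MLPH-CKO and 41.4, 33.004 and 34.5 in RHBDD2-CKO. The clones overlapped each other and all lay below Non-target, with log2 fold changes of -0.69, -0.57, -0.55 and -0.58 (SE 0.10). Its 100 nearest genes were lower too, with medians of -0.35, -0.33, -0.40 and -0.39, so that TRIAP1 differed from its neighbourhood by -0.34, -0.24, -0.15 and -0.19.

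FAS (chr10:88990582-89015785), the death receptor whose decamer pair is printed above, was 2.37, 2.22 and 2.06 FPKM in Non-target. It was 1.32, 1.21 and 1.101 in C9orf89-CKO and 1.94, 1.72 and 1.31 in MAGI2-CKO. MLPH-CKO wells held 2.05, 2.13 and 2.31, and RHBDD2-CKO wells 0.777, 1.07 and 0.752. MLPH-CKO overlapped Non-target and the other clones did not. The log2 difference of FAS was -0.82 for C9orf89-CKO (adjusted p = 0.00153) and -1.28 for RHBDD2-CKO (4.02e-05), while neighbours on chromosome 10 had medians of 0.30 and -0.06. In MAGI2-CKO the log2 fold change of -0.41 passed narrowly (0.048) and was lost under 16 of 26 alternatives, among them leaving out any 1 of the 3 Non-target wells (0.0656 to 0.128), the second MAGI2-CKO well (0.0765), the third (0.2), or the 5 first wells (0.0761). FAS shares 8.93% of its exon bases with ACTA2 on the other strand, and the library kit was not stated to keep the strand.

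BAX, the pore-forming executioner of mitochondrial apoptosis, was 58.2 ± 3.81 FPKM in Non-target and lower in C9orf89-CKO (38.1 ± 2.99), MLPH-CKO (42.1 ± 7.24) and RHBDD2-CKO (41.3 ± 4.12). In MAGI2-CKO it was 55.9 ± 3.41, and BAX in MAGI2-CKO differed from each of the other clones (log2 differences of 0.42 to 0.55, adjusted p from 0.0036 to 0.0185). PMAIP1, which encodes the BH3-only protein NOXA, went against the list. It was 38.3 ± 1.86 FPKM in Non-target and higher in C9orf89-CKO (45.4 ± 1.99) and MLPH-CKO (46.8 ± 2.38), and the first of these calls was lost without any 1 of 4 wells (the second or the third of Non-target, the first or the third of C9orf89-CKO, adjusted p from 0.0676 to 0.0913) and under median centring (0.0584).

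TP53I3 (chr2:24077433-24085861) encodes a quinone oxidoreductase, and was higher in all 4 clones. Its FPKM was 2.40, 2.85 and 1.87 in Non-target and 4.64, 3.31 and 3.97 in C9orf89-CKO. MAGI2-CKO wells held 7.33, 6.29 and 7.22, MLPH-CKO wells 6.56, 5.42 and 5.87, and RHBDD2-CKO wells 3.95, 2.81 and 3.24. The groups were separate from Non-target except RHBDD2-CKO, whose lowest well lay under the highest Non-target well. The log2 fold changes were 0.73, 1.53, 1.31 and 0.48 (SE 0.16, adjusted p of 0.00561, 1.4e-05, 7.32e-05 and 0.0378), with neighbours between -0.02 and 0.03. The call in RHBDD2-CKO was lost without the first or the third Non-target well, the first or the third RHBDD2-CKO well (adjusted p from 0.0645 to 0.16), and without the 5 first wells (0.155). Quantile normalization (0.0529), voom on recovered fragments (0.0522), no filter on low values (0.0686) and a fit of the 6 libraries alone (0.121) also lost it. That makes 9 of 26 alternatives. TP53I3 was higher in MAGI2-CKO than in C9orf89-CKO and RHBDD2-CKO by 0.80 and 1.047 on the log2 scale (adjusted p = 0.00353 and 0.00022).

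**Figure D3:**
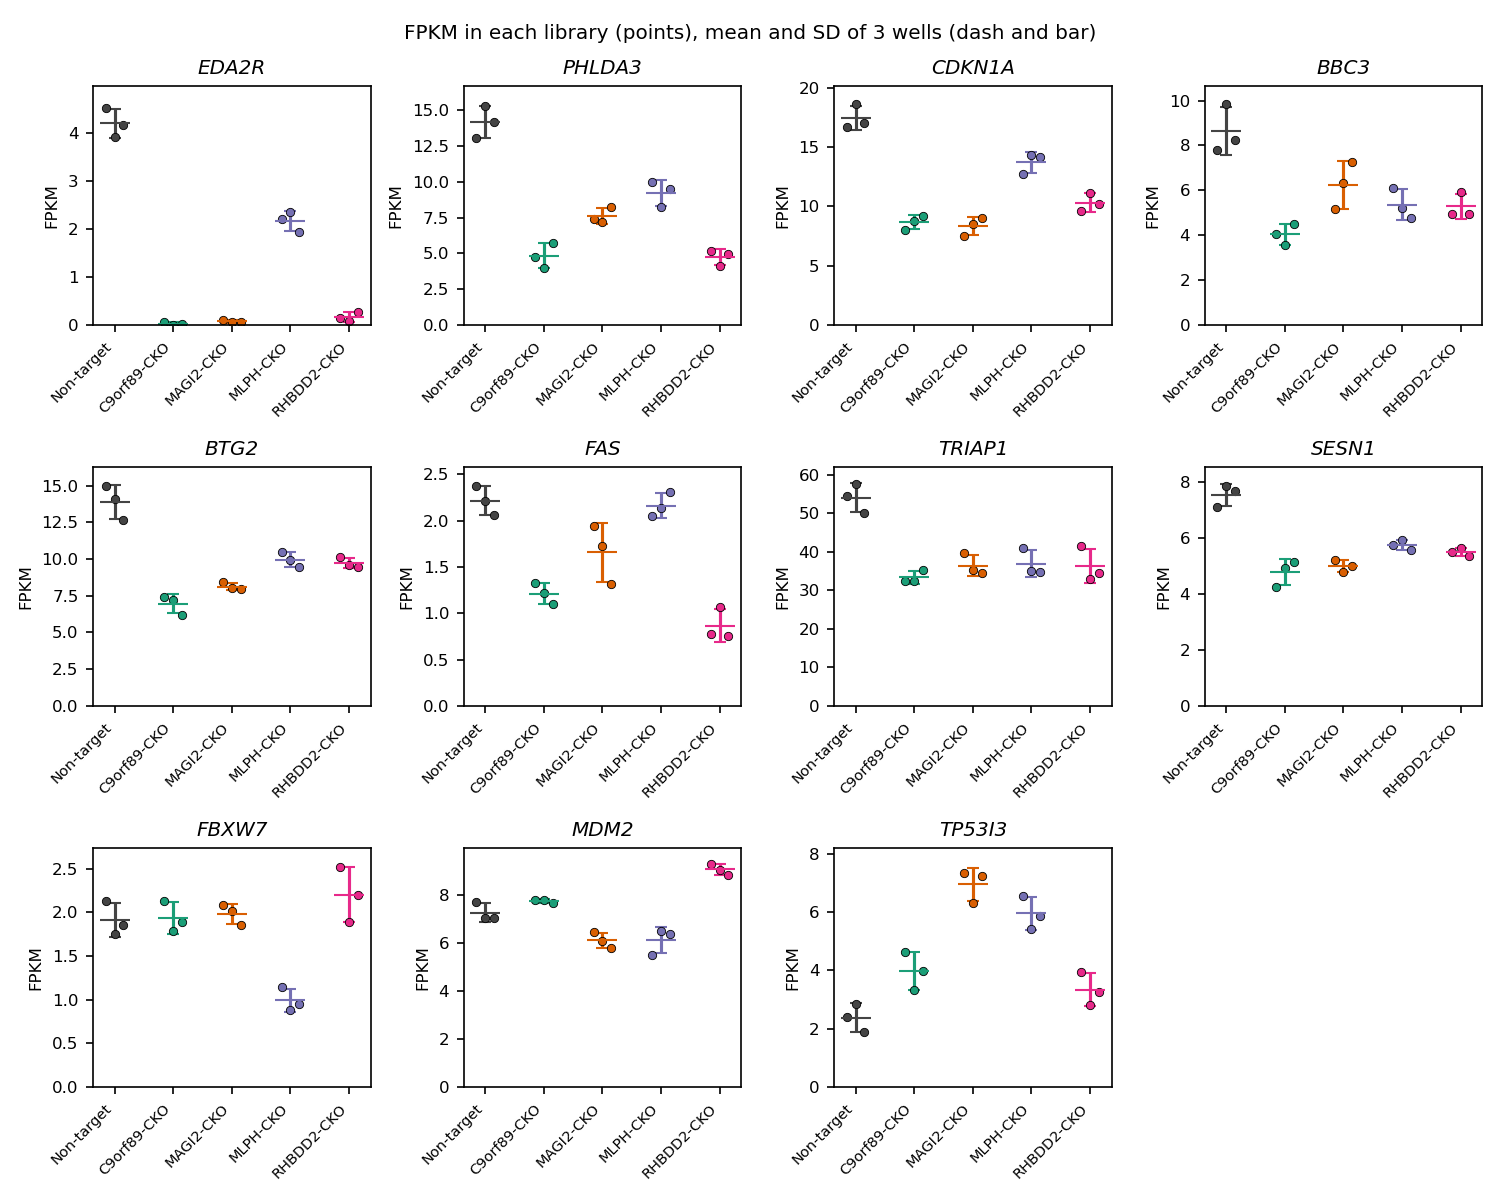
FPKM (vertical axes, from 0) of 11 p53 genes in the 5 groups, with 1 point per library and a dash and bar for the mean and SD of 3 wells. EDA2R lies near 0 in every clone but MLPH-CKO, where it is at 1.94 to 2.36, the 7 genes lower in all 4 clones sit below every Non-target point, and TP53I3 is highest in MAGI2-CKO.

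Of 6 genes for feedback and turnover, 2 were lower in each clone (33.3%) and 1 was higher, in RHBDD2-CKO (16.7%, beside 17.4% of all genes tested), with the same counts without the 5 first wells. MDM2 (chr12:68808176-68850686) is the ubiquitin ligase that p53 raises and that destroys p53. Its FPKM was 7.72, 7.06 and 7.02 in Non-target and 7.80, 7.81 and 7.65 in C9orf89-CKO. It was lower in MAGI2-CKO (6.45, 6.08 and 5.80) and MLPH-CKO (5.51, 6.51 and 6.39) and higher in RHBDD2-CKO (9.30, 9.06 and 8.84). The last 3 clones did not overlap Non-target, and the log2 fold changes were 0.09, -0.25, -0.24 and 0.32 (SE 0.07, adjusted p of 0.361, 0.0144, 0.0187 and 0.00377). Calls in MAGI2-CKO and MLPH-CKO were both lost without the first Non-target well (0.0568 and 0.0709), and also without the third MAGI2-CKO well (0.06) or the first MLPH-CKO well (0.0696), and in MLPH-CKO without the 5 first wells (0.0913) or in a fit of 6 libraries (0.103). The difference between RHBDD2-CKO and either of these clones was 0.56 (adjusted p = 3.3e-05 and 4.61e-05). MDM4, the partner of MDM2, and PPM1D, the phosphatase that ends damage signalling, passed in no clone, at 3.10 ± 0.268 and 9.18 ± 0.146 FPKM in Non-target. With a replicate block PPM1D passed as lower in C9orf89-CKO (-0.16, limma adjusted p = 0.0424).

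CCNG1 (cyclin G1, which recruits a phosphatase to MDM2) was among the most abundant genes of the list, at 90.5 ± 3.23 FPKM in Non-target, 72.4 ± 8.24 in C9orf89-CKO, 70.0 ± 2.81 in MAGI2-CKO, 79.0 ± 1.70 with MLPH-CKO and 54.3 ± 1.96 with RHBDD2-CKO. All wells of the clones lay below Non-target, and CCNG1 missed the threshold in MLPH-CKO alone (-0.19 ± 0.07, adjusted p = 0.0651, but 0.0128 without the 5 first wells, 0.045 with a replicate block and 0.0452 under median centring), where its 100 neighbours had a median of -0.19. FBXW7 (chr4:152320544-152536063), the substrate receptor of a ubiquitin ligase for cyclin E, passed in MLPH-CKO alone. It was 2.13, 1.75 and 1.85 FPKM in Non-target and 1.14, 0.885 and 0.954 in MLPH-CKO. The other clones ranged from 1.79 to 2.53 and overlapped Non-target. The log2 fold change of FBXW7 in MLPH-CKO was -0.88 (SE 0.13, adjusted p = 0.000213), its 100 neighbours on chromosome 4 had a median of -0.42 there, and the other clones differed from MLPH-CKO by 0.90 to 1.07 (adjusted p from 3.01e-05 to 0.00049).

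Of 4 genes for metabolism and redox, 3, 2, 1 and 2 were lower over the clones and none was higher, and 2, 1, 1 and 2 were lower without the 5 first wells. SESN1 (chr6:108986437-109094819) encodes sestrin 1, which restrains mTORC1 after stress. Its FPKM was 7.12, 7.87 and 7.69 in Non-target and 4.25, 4.93 and 5.14 in C9orf89-CKO. MAGI2-CKO wells held 5.21, 4.77 and 5.01, MLPH-CKO wells 5.75, 5.92 and 5.58, and RHBDD2-CKO wells 5.50, 5.65 and 5.35. All wells of the clones lay below Non-target, with log2 fold changes of -0.66, -0.59, -0.39 and -0.45 (SE 0.07, adjusted p from 3.61e-05 to 0.00158). SPATA18, which takes part in mitochondrial quality control, was 1.69 ± 0.198 FPKM in Non-target and lower in C9orf89-CKO (1.06 ± 0.167) and MAGI2-CKO (1.048 ± 0.186). The SPATA18 calls were lost without the third Non-target well (adjusted p = 0.107 and 0.0757) and without the first well of the clone (0.105 and 0.0816), and in C9orf89-CKO also without the first Non-target well (0.0555) or the second C9orf89-CKO well (0.0633). Without the 5 first wells both were lost (0.128 and 0.121). TIGAR, a fructose bisphosphatase, lay between 0.539 and 1.12 FPKM with no call, and 45.6% of its exon bases are shared with other genes.

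DDB2, FDXR, AEN, RPS27L and FBXO22, 5 genes of the 31, were lower in C9orf89-CKO and RHBDD2-CKO and passed in neither of the other clones, a pattern of 1.09% of all genes tested. For each of the 5, C9orf89-CKO and RHBDD2-CKO were also below MAGI2-CKO and MLPH-CKO in all 4 contrasts between those clones, which was so for 0.21% of all genes. Without the 5 first wells 5 genes had the first pattern, against 1.47% of all genes, with FAS in place of DDB2. With a replicate block 0 of the 31 genes had it, since each of the 5 then passed in MAGI2-CKO, MLPH-CKO or both (adjusted p from 0.00669 to 0.0497), DDB2 in MLPH-CKO and AEN in MAGI2-CKO as lower. The share of all genes with this pattern under the block is not given here. The 5 genes were grouped, and the 4 contrasts between clones added, after their values were seen. Both shares of all genes are therefore descriptions and no support for the grouping. AEN, RPS27L and FBXO22 also lie on the same chromosome, so the 5 may not be separate instances. Counts of the second pattern without the 5 first wells or with the block are not given here. DDB2 (chr11:47214465-47239240) is a damage sensor of nucleotide excision repair. Its FPKM was 4.87, 5.34 and 5.57 in Non-target and 3.19, 3.30 and 3.17 in C9orf89-CKO. MAGI2-CKO wells held 5.88, 5.80 and 6.30, MLPH-CKO wells 4.70, 4.43 and 4.60, and RHBDD2-CKO wells 2.56, 2.76 and 3.04. The wells of C9orf89-CKO and RHBDD2-CKO lay below those of every other group. The log2 fold changes against Non-target were -0.69, 0.19, -0.20 and -0.89 (SE 0.07), and MAGI2-CKO exceeded RHBDD2-CKO by 1.08 (adjusted p = 1.97e-07).

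FDXR, the mitochondrial ferredoxin reductase, was 10.4 ± 0.869 FPKM in Non-target and, over the 4 clones, 8.24 ± 0.469, 12.2 ± 0.658, 12.3 ± 1.43 and 7.23 ± 0.268. AEN, a p53-induced nuclease, was 24.0 ± 1.38, 14.6 ± 0.816, 21.5 ± 1.498, 23.2 ± 0.624 and 16.2 ± 0.298 FPKM, with Non-target first. RPS27L, a ribosomal protein paralog whose near-identical relatives make its count uncertain, was 4.08 ± 0.56, 2.43 ± 0.641, 4.90 ± 0.809, 5.68 ± 1.70 and 2.26 ± 0.636. FBXO22, a substrate receptor that targets methylated p53, was 7.41 ± 0.327, 5.96 ± 0.121, 7.26 ± 0.524, 8.52 ± 0.384 and 5.45 ± 0.525, with 16.2% of its exon bases shared. In each of these 4 genes, as in DDB2, the same 2 clones were the lowest. AEN, RPS27L and FBXO22 lie on chromosome 15, where the 100 nearest genes had medians of 0.24 to 0.46 in MAGI2-CKO and MLPH-CKO and -0.06 to 0.07 in C9orf89-CKO and RHBDD2-CKO. The RPS27L calls were lost when any 1 of several wells was left out (any Non-target well and the second or the third clone well in C9orf89-CKO, the first Non-target well and the second or the third clone well in RHBDD2-CKO, adjusted p from 0.0529 to 0.127), and the FDXR call in C9orf89-CKO without the second Non-target well (0.052) or the third C9orf89-CKO well (0.0508). XPC and POLH, the other DNA repair genes, passed in no clone.

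**Figure D4:**
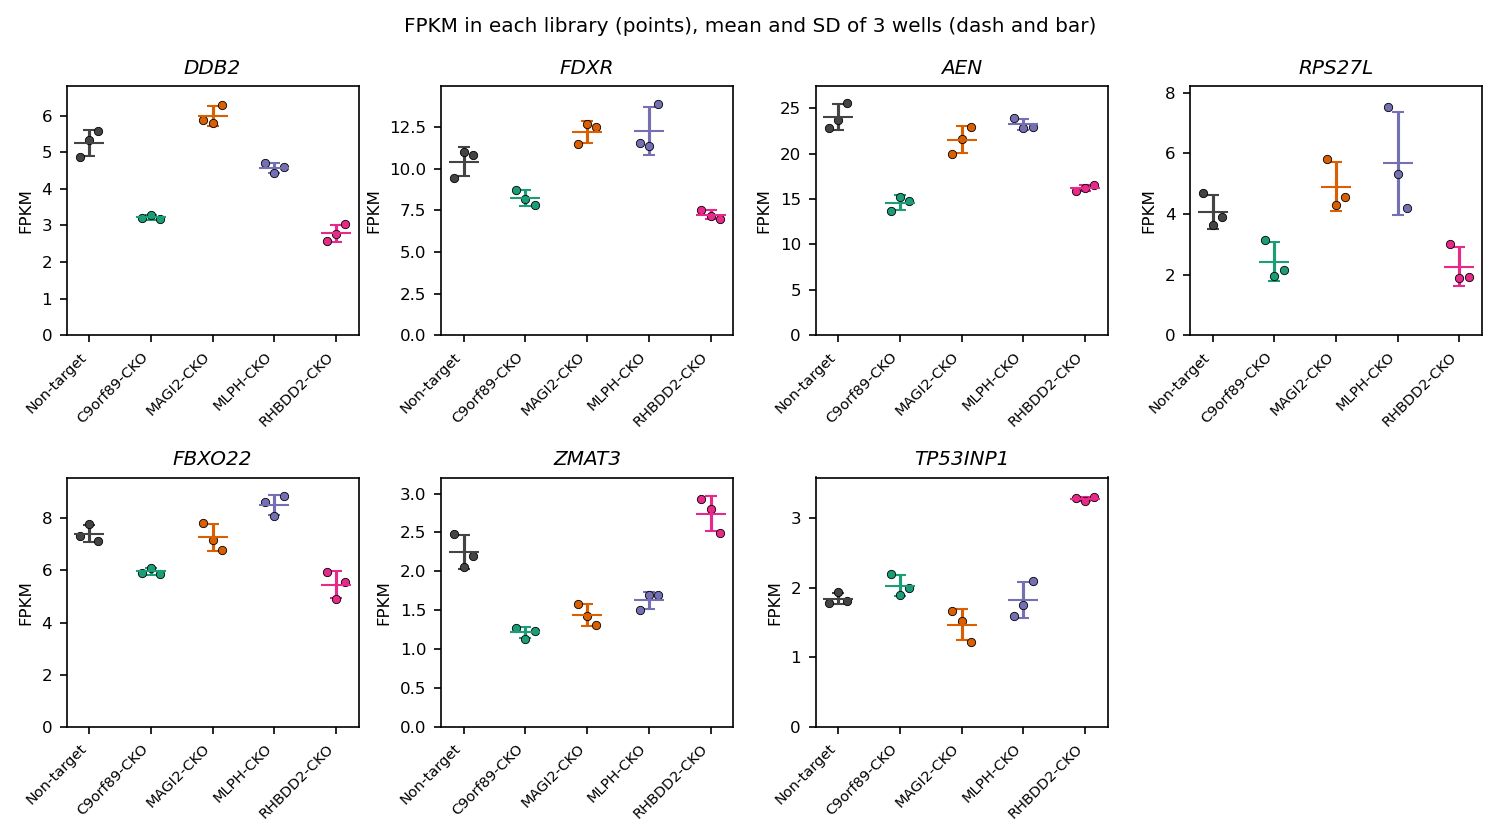
FPKM (vertical axes, from 0) of 7 p53 genes in the 5 groups, with 1 point per library and a dash and bar for the mean and SD of 3 wells. C9orf89-CKO and RHBDD2-CKO are the lowest groups for DDB2, FDXR, AEN, RPS27L and FBXO22, whereas RHBDD2-CKO is the highest for ZMAT3 and TP53INP1.

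Between C9orf89-CKO and RHBDD2-CKO 12 of the 31 genes differed (38.7%, beside 29.3% of all genes tested). ZMAT3 and TP53INP1 are described here because their means were highest in RHBDD2-CKO, and they were not fixed as a pair beforehand. ZMAT3, an RNA-binding splicing regulator, was 2.25 ± 0.217 FPKM in Non-target, and over the 4 clones 1.21 ± 0.0705, 1.44 ± 0.138, 1.63 ± 0.109 and 2.74 ± 0.224. It was lower in the first 3 clones (-0.83, -0.61 and -0.44). In RHBDD2-CKO its log2 fold change was 0.28 ± 0.10 (limma adjusted p = 0.0574), which passed with a replicate block (0.0468). C9orf89-CKO differed from RHBDD2-CKO by -1.11 (adjusted p = 5.62e-06). The ZMAT3 call in MLPH-CKO was lost without the 5 first wells (0.0609). TP53INP1, a nuclear stress protein that also serves autophagy, was 1.84 ± 0.0793 FPKM in Non-target, and over the clones 2.03 ± 0.153, 1.47 ± 0.221, 1.82 ± 0.257 and 3.28 ± 0.0317. It was higher in RHBDD2-CKO by 0.80 (SE 0.12, adjusted p = 0.000216), while its call in MAGI2-CKO (-0.32, adjusted p = 0.0496) was lost under 18 of 26 alternatives, among them leaving out any 1 Non-target well (0.0745 to 0.134), the second MAGI2-CKO well (0.0775) or the third (0.203).

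The 2 upstream tumour suppressors each had 1 call, as higher, CDKN2A in MLPH-CKO and RB1 in RHBDD2-CKO. Of all genes tested, 14.5% and 17.4% were higher in these clones, so no shared direction is read from the 2 calls. CDKN2A, which encodes p16 and the MDM2 inhibitor ARF, was 82.1 ± 11.2 FPKM in Non-target and 124.9 ± 8.57 in MLPH-CKO (0.61 ± 0.12, adjusted p = 0.00228), with no call in the other clones. With a replicate block CDKN2A also passed as higher in MAGI2-CKO (0.25, limma adjusted p = 0.0332). RB1 was 12.3 ± 0.819 FPKM in Non-target and 14.5 ± 0.724 in RHBDD2-CKO (0.25 ± 0.07, adjusted p = 0.0136), a call lost without the second Non-target well (0.0632) or the third RHBDD2-CKO well (0.0528). A fit of the 6 libraries alone also lost the RB1 call (limma adjusted p = 0.0534). The untested genes were GDF15, a secreted stress cytokine, at 0.0849 to 0.65 FPKM from 3 to 21 fragments, and TNFRSF10B-AS1, an antisense RNA of a death receptor gene, at 0 to 4 fragments.

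The clones also differed from each other in this list. MLPH-CKO against RHBDD2-CKO gave 14 genes higher and 6 lower in MLPH-CKO, against 18.4% and 18.7% of all genes tested (37% together). In MAGI2-CKO 10 genes were higher and 6 lower than in RHBDD2-CKO (20% and 21.5% of all genes, 41.6% together). C9orf89-CKO was lower than MLPH-CKO in 15 genes and higher in 2 (6.63% and 7.61%, 14.2% together), and lower than MAGI2-CKO in 11 and higher in 2 (9.76% and 12.7%, 22.5% together). C9orf89-CKO was lower than RHBDD2-CKO in 9 genes and higher in 3 (14.3% and 15%, 29.3% together). MAGI2-CKO was lower than MLPH-CKO in 6 genes and higher in 4 (11.8% and 9.4%, 21.2% together). The total of 10 became 13 without the 5 first wells. It became 6 without the second or the third MAGI2-CKO well or the first or the third MLPH-CKO well. The share of all genes called with any of these single wells left out is not given here. Without the 5 first wells MLPH-CKO had 14 genes higher and 5 lower than RHBDD2-CKO (19.8% and 19.6% of all genes), and MAGI2-CKO had 11 higher and 6 lower (22.8% and 23%). C9orf89-CKO then had 13 genes lower and 2 higher than MLPH-CKO (8.8% and 10.7%), 9 lower and 4 higher than MAGI2-CKO (14.6% and 16.7%), and 8 lower and 2 higher than RHBDD2-CKO (16.5% and 18.4%). MAGI2-CKO had 9 lower and 4 higher than MLPH-CKO (13.3% and 12.5%). In the contrasts of C9orf89-CKO with the other clones, which do not use the Non-target wells, more p53 genes were lower than higher in C9orf89-CKO each time.

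**Figure D5:**
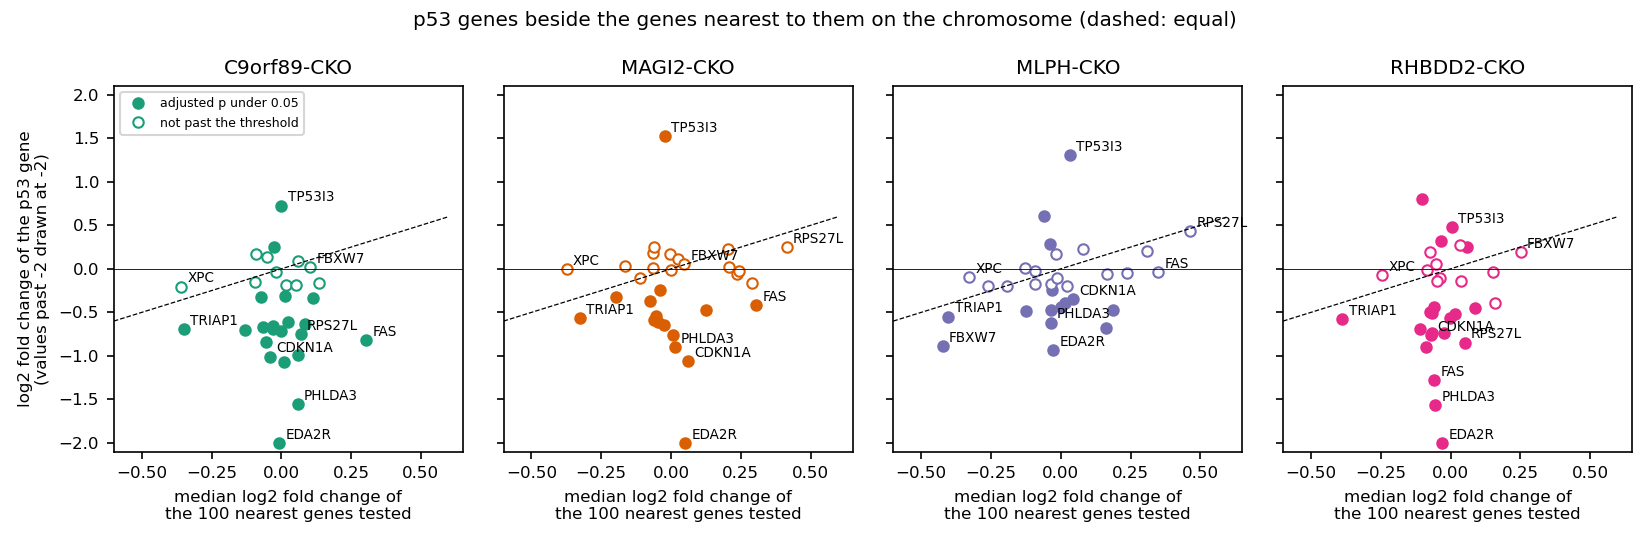
Log2 fold change of each of the 31 p53 genes against Non-target (vertical axis, values past -2 drawn at -2) beside the median log2 fold change of the 100 tested genes nearest to it on its chromosome (horizontal axis), in the 4 clones. Filled points passed the threshold, open points did not, and the dashed line marks equality. TRIAP1 sits at neighbours of -0.33 to -0.40 in all 4 panels and FBXW7 at -0.42 in MLPH-CKO, while EDA2R, PHLDA3, CDKN1A and TP53I3 have neighbours near 0.

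Each gene was also set beside its neighbours on the chromosome. Of the 61 calls of a lower level over the 4 clones, 58 were more than 0.2 below the median of the 100 nearest genes on the log2 scale. The same was so for 79.3% of 10417 such calls among the genes tested. The choice of genes called lower largely sets this share, so it is a description. The other 3 calls, TRIAP1 in MLPH-CKO and RHBDD2-CKO and TP53INP1 in MAGI2-CKO, lay closer to their neighbours. XPC, with 30.4% of its exon bases shared, was the reverse case: its neighbours on chromosome 3 had medians of -0.25 to -0.37, and XPC itself lay between -0.20 and -0.01 with no call.

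Wider lists of the p53 pathway were taken by function. Of 54 other p53 targets, 39 were tested: 10, 11, 5 and 9 were lower and 2, 5, 8 and 3 higher over the 4 clones, with medians of -0.13, -0.12, -0.02 and -0.14. That is 25.6%, 28.2%, 12.8% and 23.1% lower and 5.13%, 12.8%, 20.5% and 7.69% higher. Of all genes tested, 13.1%, 19.1%, 15.5% and 16.7% were lower and 12.9%, 17%, 14.5% and 17.4% higher, and these shares are the background for each list that follows. When the 5 first wells were left out, 15, 15, 9 and 13 of the 39 were lower (38.5%, 38.5%, 23.1% and 33.3%) and 2, 5, 9 and 4 higher (5.13%, 12.8%, 23.1% and 10.3%). The shares of all genes tested were then 17.2%, 21.7%, 20.3% and 22.2% lower and 15.2%, 18.7%, 16.6% and 19.8% higher, also for the lists that follow. TNFRSF10D, a decoy receptor for the death ligand TRAIL, had the lowest mean log2 fold change among those called in at least 3 clones. It was 9.26 ± 0.505 FPKM in Non-target and, over the clones, 2.35 ± 0.196, 2.02 ± 0.182, 2.05 ± 0.421 and 0.0506 ± 0.0304. HSPA4L, a heat shock protein, passed in the first 3 of these clones (-0.68, -1.04 and -0.75). Genes of this list called higher in at least 3 clones lay under the mean of 1 FPKM asked of named genes. Only lower genes are therefore named here.

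Of 35 tested genes of the p53 family, its kinases and cofactors, 4, 6, 10 and 8 were lower (11.4%, 17.1%, 28.6% and 22.9%) and 3, 7, 2 and 8 higher (8.57%, 20%, 5.71% and 22.9%) over the 4 clones, with medians from -0.07 to 0.04. Leaving out the first wells gave 3, 9, 11 and 8 lower (8.57%, 25.7%, 31.4% and 22.9%) and 7, 10, 5 and 12 higher (20%, 28.6%, 14.3% and 34.3%). TP73, the p53 relative that binds the same DNA element, was 1.87 ± 0.111 FPKM in Non-target and higher in all 4 clones, at 3.98 ± 0.445, 2.70 ± 0.266, 3.23 ± 0.388 and 2.80 ± 0.191. TP53BP1, a damage-response scaffold, was higher in MAGI2-CKO and MLPH-CKO (0.63 and 0.60) and in C9orf89-CKO (0.24). KMT5A, a histone methyltransferase that also modifies p53, was lower in all 4 (-0.53, -0.45, -0.49 and -0.40). MRE11, a nuclease of the break-sensing complex, was lower in every clone but C9orf89-CKO (-0.32, -1.62 and -0.88). The TP53BP1 call in C9orf89-CKO was lost without any 1 of the second and the third Non-target wells and the first and the second C9orf89-CKO wells (adjusted p from 0.0643 to 0.098), and the MRE11 call in MAGI2-CKO without the first Non-target well (0.0874) or the third MAGI2-CKO well (0.0928).

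p21 is known to lower cell cycle genes through the DREAM complex, and 30 such genes were all tested. Of these, 4, 6, 6 and 3 were lower (13.3%, 20%, 20% and 10%) and 2, 5, 4 and 5 higher (6.67%, 16.7%, 13.3% and 16.7%) over the 4 clones, with medians of -0.04, -0.05, -0.09 and 0.02. The counts became 4, 9, 12 and 9 lower (13.3%, 30%, 40% and 30%) and 5, 6, 5 and 8 higher (16.7%, 20%, 16.7% and 26.7%) without the 5 first wells. The share lower was thus below that of all genes in RHBDD2-CKO with all wells and above it without the first ones. The proliferation marker MKI67 was higher in every clone but MLPH-CKO (0.52, 0.63 and 0.48), and the cytokinesis motor KIF23 in every clone but C9orf89-CKO (0.33, 0.36 and 0.28). The helicase gene MCM2 was lower in every clone but MAGI2-CKO (-0.27, -0.23 and -0.89), and the phosphatase gene CDC25A in every clone but RHBDD2-CKO (-0.41, -0.46 and -0.47). The MKI67 call in RHBDD2-CKO was lost under 11 of 26 alternatives, among them leaving out the second or the third Non-target well (adjusted p = 0.175 and 0.0949) or any RHBDD2-CKO well (0.0675 to 0.106). The MKI67 call in C9orf89-CKO was lost without the second or the third Non-target well or the first or the second C9orf89-CKO well (0.0501 to 0.15). The MCM2 calls in C9orf89-CKO and MLPH-CKO were lost without the second or the third Non-target well, the first C9orf89-CKO well or the first or the second MLPH-CKO well (0.0598 to 0.114), and with quantile normalization (0.186 and 0.194).

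In the list of RB family, E2F and cyclin-dependent kinase genes, all 25 were tested, with 3, 8, 7 and 7 lower (12%, 32%, 28% and 28%) and 3, 4, 3 and 8 higher (12%, 16%, 12% and 32%) across the clones, and medians from -0.10 to -0.04. With the first wells left out, 4, 9, 8 and 10 were lower (16%, 36%, 32% and 40%) and 4, 4, 4 and 8 higher (16%, 16%, 16% and 32%). E2F2, a transcription factor that RB holds back, was 5.90 ± 0.523 FPKM in Non-target and higher in all 4 clones at 10.9 ± 0.0911, 9.76 ± 0.912, 9.51 ± 0.873 and 12.6 ± 1.40. CDK2 was higher in all 4 by 0.17 to 0.32. Cyclin D1 (CCND1) was 10.9 ± 0.549 FPKM in Non-target and lower in all 4, down to 3.25 ± 0.335 in RHBDD2-CKO, and cyclin E1 (CCNE1) was lower by 0.30 to 0.55 on the log2 scale. The CCND1 call in C9orf89-CKO and the CDK2 call in MAGI2-CKO (adjusted p = 0.0467 and 0.0426) were lost under 18 and 13 of 26 alternatives, among them leaving out any 1 of the wells compared (0.0504 to 0.159). The CCNE1 call in MAGI2-CKO was lost without the second Non-target well or any MAGI2-CKO well (0.0566 to 0.12). The CDK2 call was lost in MLPH-CKO without its second well (0.051), and in RHBDD2-CKO without the second or the third Non-target well or its first or the third well (0.0562 to 0.0777).

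Of 14 genes of the ATF4 and CHOP stress response, 7, 3, 6 and 8 were lower (50%, 21.4%, 42.9% and 57.1%) and 0, 3, 1 and 1 higher, with medians of -0.31, -0.01, -0.24 and -0.42. These became 7, 3, 7 and 8 lower (50%, 21.4%, 50% and 57.1%) and 0, 2, 1 and 0 higher without the 5 first wells. PHGDH, the first enzyme of serine synthesis, was 96.7 ± 9.77 FPKM in Non-target and lower in all 4 clones at 64.1 ± 4.43, 66.7 ± 4.78, 67.2 ± 1.91 and 53.1 ± 1.06. PSAT1, the next enzyme of that pathway, was also lower in all 4 (-0.54, -0.32, -0.48 and -0.57). PPP1R15A, which encodes the phosphatase subunit GADD34, was higher in every clone but C9orf89-CKO (0.30, 0.47 and 0.27). Its call in RHBDD2-CKO was lost under 18 of 26 alternatives, among them leaving out any Non-target well (0.0566 to 0.158) or the first or the second RHBDD2-CKO well (0.123 and 0.158). Its call in MAGI2-CKO was lost without the second or the third Non-target well or the first or the second MAGI2-CKO well (0.0519 to 0.106).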

How the data were processed

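RNA was taken from HEK293T wells with an RNeasy kit and DNase I, made into libraries with the NEBNext Ultra RNA kit, and sequenced on a NovaSeq 6000. The deposited tables hold FPKM per Ensembl gene, computed by the authors. The submitters' processing notes name HISAT2 2.0.5, featureCounts 1.5.0-p3 and DESeq2, and the genome build and annotation are not given in the sources used here. Gene names, exon lengths and gene coordinates were taken from GENCODE 29 (GRCh38), which matched all 58735 genes. With these lengths 100% of the values above 0 were whole fragments within 0.02, which gave the depth. No 2 wells were closer than counting noise.

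Limma 3.58.1 (R 4.3.3, eBayes with a variance trend) was fitted on log2(FPKM + 0.1) over all 15 libraries. Python 3.11.15 did the rest. On simulated data for C9orf89-CKO against Non-target (16175 genes), 71 of 100 genes changed 2-fold and 98 of 100 changed 4-fold were recovered, and 9 unchanged genes were called. The simulated wells were drawn independently with the same dispersion for every gene, only 200 changed genes and no separate first well. These rates therefore check the code and need not hold for the data. With 3 wells against 3, an exact permutation test could not go below p = 0.1. Alternatives covered filter, pseudocount, scaling, trend, the libraries fitted, a replicate block and voom on the recovered fragments. Those for contrasts between clones, for genes lower in all 4 clones and other patterns over clones, for the wider lists, for non-overlapping genes and for genes outside the naming rule were chosen after seeing the data.

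Members and lists were chosen with earlier results of these data known. Values in every library are given for CDKN1A, MDM2, genes called the same way in all 4 clones, and the 3 largest changes per clone with a mean of at least 1 FPKM, and DDB2 was added after its values were seen. Another gene of this rule and a marker are not reported here. Other lists name up to 2 genes in each direction among those with a mean of at least 1 FPKM that were called the same way in at least 3 clones. Fragments were counted without molecular identifiers, so intervals cover counting error only.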

Additional observations from a re-analysis of the deposited data

Results flagged for a closer look

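MDM2 and TP53INP1, 2 of the 31 p53 genes, had calls in opposite directions between clones. That share (6.45%) lies near the 7.28% of all genes tested, so the count says nothing particular about the list, and the values are given for the 2 genes alone. The log2 difference of MDM2 was -0.56 between MAGI2-CKO and RHBDD2-CKO and -0.56 between MLPH-CKO and RHBDD2-CKO (limma adjusted p = 3.3e-05 and 4.61e-05), with all wells of the first 2 clones below Non-target and all wells of RHBDD2-CKO above it. For TP53INP1 the difference between MAGI2-CKO and RHBDD2-CKO was -1.12 (adjusted p = 8.08e-06), again with no overlap on either side of Non-target. The call of TP53INP1 below Non-target in MAGI2-CKO (adjusted p = 0.0496) was lost under 18 of 26 alternatives, and those of MDM2 in MAGI2-CKO and MLPH-CKO under 2 and 4. With a replicate block 6 genes had calls in both directions, with MDM2 among them and TP53INP1 not. The 2 shares above are from the fit without the block. No share of all genes with the block is given here, so nothing is read from the 6.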

How the results depend on the processing

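Of 71 calls of p53 genes against Non-target, 54 held under all 26 alternatives and 17 were lost under at least 1, while 14 others passed under at least 1. No called value changed sign. The numbers of p53 genes lower ranged from 17 to 20 (C9orf89-CKO), 11 to 14 (MAGI2-CKO), 10 to 14 (MLPH-CKO) and 15 to 17 (RHBDD2-CKO), and the number lower in all 4 clones from 6 to 8, with CDKN1A, SESN1, BTG2, PHLDA3 and TRIAP1 among them under each alternative that fits all 4. Some counts between clones moved. For MAGI2-CKO against MLPH-CKO the genes lower numbered 3 with no filter, and leaving out 1 library gave 2 to 7 lower and 6 to 11 called. For C9orf89-CKO against MLPH-CKO a fit of the 6 libraries alone called 10, of which 9 were lower. Except for the fit without the first wells, shares of all genes tested under the alternatives are not given here. The counts and ranges from those fits thus have no background beside them. Whether the list alone or the whole fit lost calls is not shown. The cause of these shifts was not tested.

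Values that changed sign were all under the threshold. With quantile normalization the log2 fold changes in MAGI2-CKO were 0.014 for BAX, 0.010 for XPC and -0.031 for TIGAR. With median centring they were -0.013 for FBXW7 and -0.0064 for MRE11 in C9orf89-CKO and -0.019 for RB1 in MLPH-CKO. Without replicate 1 of every group they were 0.030 for RB1 in C9orf89-CKO, -0.0059 for PPM1D in MAGI2-CKO, 0.051 for FAS, 0.039 for TP53INP1 and -0.031 for CARD19 in MLPH-CKO, and 0.13 for TIGAR and 0.0075 for PPM1D in RHBDD2-CKO. Leaving out 1 library gave these ranges. In C9orf89-CKO, TIGAR ran from -0.33 to 0.035, FBXW7 from -0.052 to 0.094, MRE11 from -0.062 to 0.115 and RB1 from -0.091 to 0.016. In MAGI2-CKO, XPC ran from -0.056 to 0.050, MDM4 from -0.076 to 0.066, TIGAR from -0.088 to 0.34, FBXW7 from -0.0048 to 0.13, POLH from -0.066 to 0.064, FBXO22 from -0.084 to 0.017 and PMAIP1 from -0.031 to 0.092. In MLPH-CKO, FAS ran from -0.083 to 0.014, CARD19 from -0.059 to 0.16, TP53INP1 from -0.13 to 0.059 and RB1 from -0.049 to 0.045. In RHBDD2-CKO, TIGAR ran from -0.16 to 0.21, CDKN2A from -0.038 to 0.16 and PPM1D from -0.065 to 0.017.

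The labels do not say what a replicate number stands for. Same-numbered wells of 2 groups had correlations from 0.00103 to 0.312 (median 0.0856, 12 of 30 pairs above 0.1), different numbers a median of -0.0887 (2 of 60 above 0.1), and 12 of 15 libraries correlated best with their own number, a hint of pairing from the data and not from the design. With the replicate block, 22, 18, 19 and 21 p53 genes were called, of which 20, 14, 14 and 16 were lower. Shares of all genes with the block are not given here, so its counts have no background beside them. The block added 10 calls, among them CCNG1 in MLPH-CKO (8 genes lower in all 4 clones), and lost that of TP53INP1 in MAGI2-CKO (0.0573). Where 1 library is left out, the lone or paired wells of that clone are assumed to vary like the other groups. Low depth limits EDA2R in 3 clones, GDF15 and TNFRSF10B-AS1.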
